A study of Mus musculus with 8 samples.

Results

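The endogenous opioid system was followed at the RNA level in the mouse thalamus through 8 genes, the 4 opioid peptide precursors Penk, Pdyn, Pomc and Pnoc and the 4 opioid receptors Oprm1, Oprd1, Oprk1 and Oprl1. The genes were chosen by name, as a proposed route by which needling could act, and each was read from the probe set whose annotation holds that symbol alone. Each gene had 1 such probe set, and all 8 passed the brightness filter (mean log2 level of at least 5.63), so that 8 of 13524 tested genes are described. Levels came from Affymetrix whole-transcript arrays as log2 values after RMA, which subtracts background, scales the arrays to each other and combines a probe set's probes into 1 value.

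Thalamic tissue came from 8 male C57BL/6 mice, an inbred strain, that were 6 weeks old at the start, in 4 groups of 2. The acupoint group received MPTP and needling at GB34 and LR3, points on the shin and the foot, given 14 times at intervals of 48 hr to a depth of 3 mm at GB34 and 1 mm at LR3. The non-acupoint group received MPTP and the same needling at the hips, at 3 mm, the MPTP group received MPTP without needling, and the control group received saline. MPTP, a toxin that damages dopaminergic neurons and models parkinsonism, was injected at 20 mg/kg every 24 hr for 4 weeks. Controls had their saline injections at the same interval and for the same time. Both needled groups were compared on top of MPTP, since needling in saline mice was not analysed here. The mice are numbered within a group, and p-values rest on the spread between these mice pooled over the groups.

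MPTP mouse 1 and non-acupoint mouse 1 gave arrays that stood apart. They correlated with each other at r = 0.982 across tested probe sets and with the other 6 arrays at 0.905 to 0.936, where the other 6 correlated among themselves at 0.981 to 0.995. The median log2 level of an array was 6.18 at the lowest and 6.29 at the highest. All 9 measured thalamic neuron markers passed the brightness filter, among them Prkcd, Tcf7l2 and Slc17a6. Markers of neighbouring regions were measured too, with all 6 striatal and all 10 hypothalamic markers above the filter, among them Drd2, Rgs9, Oxt and Avp. In bulk tissue fewer cells of a type and less RNA per cell cannot be told apart. Precision is limited by how few arrays there are.

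Opioid peptides are cut from large precursor proteins. Proenkephalin (Penk) yields enkephalins, prodynorphin (Pdyn) dynorphins, proopiomelanocortin (Pomc) β-endorphin together with ACTH and melanocortins, and prepronociceptin (Pnoc) nociceptin. They act on G protein-coupled receptors that inhibit adenylyl cyclase, open inwardly rectifying potassium channels and close presynaptic calcium channels, namely the μ (Oprm1), δ (Oprd1), κ (Oprk1) and nociceptin (Oprl1) receptors. Enkephalin and dynorphin are abundant in medium spiny neurons of the striatum, Pomc neurons lie in the arcuate nucleus of the hypothalamus, and the medial habenula and parts of the thalamus are rich in the μ receptor.

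No opioid gene passed the test between any pair of groups when all arrays weighed the same. By limma with Benjamini-Hochberg adjustment over 15791 probe sets, 0 of the 8 genes passed an adjusted p of 0.05 for acupoint against MPTP, for non-acupoint against MPTP, for acupoint against non-acupoint or for MPTP against control. The same rule called 0%, 0.0443%, 0% and 0% of all tested probe sets in these 4 comparisons. The smallest adjusted p among the 8 genes was 0.889, 1, 0.893 and 0.714 in the same order. At an unadjusted p under 0.05, 0 of the 8 genes were picked in each of the 4 comparisons, against 1.37%, 1.56%, 1.89% and 5.29% of all probe sets. The test over all 4 groups at once also called 0 of the 8, where it called 0% of probe sets after adjustment and 3.54% before it. The levels held 2 patterns, a spread of Penk, Pdyn and Oprk1 between mice of the same group and lower Pomc and Oprd1 in every injected mouse.

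Penk had the largest spread of the 8 genes. Acupoint mice 1 and 2 had log2 levels of 8.52 and 10.74, non-acupoint mice 10.90 and 10.08, MPTP mice 12.40 and 9.24 and controls 10.56 and 10.63, mouse 1 first in each group. The highest and lowest arrays thus differed 14.7-fold, and the groups overlapped. The 2 MPTP mice alone differed 8.93-fold and the 2 acupoint mice 4.68-fold, while the 2 controls differed 1.05-fold. The residual SD of Penk within groups was 1.40 on the log2 scale, larger than that of 99.9% of tested probe sets, whose median was 0.207.

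With that spread the group means of Penk could not be told apart. They were 9.63 ± 1.57 in acupoint, 10.49 ± 0.58 in non-acupoint, 10.82 ± 2.23 in MPTP and 10.60 ± 0.047 in control mice (SD, n = 2 each). No neighbours in the order of these means differed beyond their spread. The acupoint mean was -1.19 ± 1.10 (SE) from the MPTP mean on the log2 scale (95% interval -3.82 to 1.45, limma adjusted p = 0.889). The interval runs from 0.071-fold to 2.73-fold of the MPTP level, so changes of several fold in either direction were not detectable. Without MPTP mouse 1 and non-acupoint mouse 1 the difference had the other sign, at 0.39, and that of non-acupoint against MPTP moved to 0.84, against -0.33 over all 8 arrays. The difference of MPTP against control moved likewise, to -1.36 without these arrays, against 0.22 with them.

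**Figure D1:**
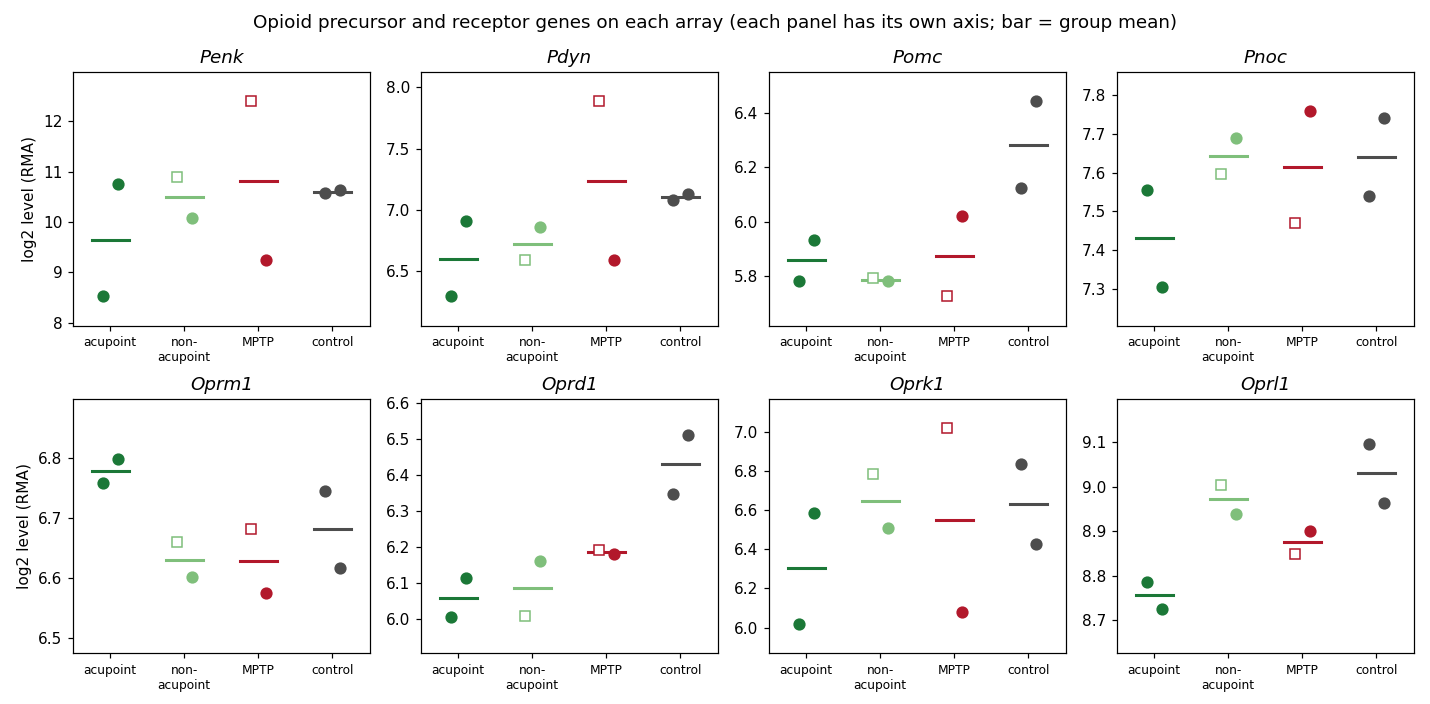
Log2 level (RMA) of each opioid gene on each of the 8 arrays, 1 panel per gene with its own axis, groups from left to right acupoint, non-acupoint, MPTP and control. Points are mice (mouse 1 left), bars are group means, and open squares are MPTP mouse 1 and non-acupoint mouse 1, which stood apart. Penk spans 8.52 to 12.40 with MPTP mouse 1 on top, and Pomc and Oprd1 are below both controls in all 6 injected mice.

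Pdyn followed a similar course. Its level was 6.29 and 6.91 in acupoint mice, 6.59 and 6.86 in non-acupoint mice, 7.89 and 6.59 in MPTP mice and 7.08 and 7.13 in controls (mouse 1, then mouse 2). MPTP mouse 1 was again highest and acupoint mouse 1 again lowest, a 3.02-fold span. All 4 needled mice lay below both controls, although MPTP mouse 2 did too and MPTP mouse 1 lay above them. Acupoint mice did not overlap controls in 59.6% of all probe sets, and non-acupoint mice in 47.7%. Pdyn was -0.64 ± 0.42 (SE) in acupoint against MPTP mice (95% interval -1.65 to 0.37) and -0.51 ± 0.42 in non-acupoint against MPTP mice (-1.52 to 0.49), with limma adjusted p of 0.889 and 1. Without MPTP mouse 1 these differences were 0.0086 and 0.13, so the lower needled means rest on that mouse. Without both arrays that stood apart they were 0.0086 and 0.27.

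Oprk1, the receptor at which dynorphins act, shared the same extremes. It stood at 6.02 and 6.58 in acupoint mice, 6.79 and 6.51 in non-acupoint mice, 7.02 and 6.08 in MPTP mice and 6.83 and 6.43 in controls. MPTP mouse 1 was highest, acupoint mouse 1 lowest and MPTP mouse 2 second lowest, as for Penk. The acupoint group differed from the MPTP group by -0.25 ± 0.35 (SE; 95% interval -1.09 to 0.60) and the non-acupoint group by 0.10 ± 0.35 (-0.75 to 0.94), with limma adjusted p of 0.889 and 1. The first of these turned to 0.22 without the arrays that stood apart.

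Most striatal markers shared the highest and lowest arrays of these 3 genes. Of 6 measured markers of medium spiny neurons, 5 were highest in MPTP mouse 1 and 5 lowest in acupoint mouse 1. Their mean log2 level was 7.42 and 8.40 in acupoint mice, 8.05 and 7.83 in non-acupoint mice, 9.35 and 7.59 in MPTP mice and 8.20 and 8.28 in controls. Rgs9, a regulator of G protein signalling that is abundant in the striatum, stood at 7.12 and 8.25, 8.71 and 7.77, 10.36 and 7.21, and 8.35 and 8.38 on the same arrays. The dopamine receptor gene Drd2 ranged from 7.42 in acupoint mouse 1 to 9.41 in MPTP mouse 1. Within each group Penk and the mean of the striatal markers were higher in the same mouse. Pdyn ran the other way in non-acupoint mice only (6.59 and 6.86, against 8.05 and 7.83). Oprk1 did so in controls only (6.83 and 6.43, against 8.20 and 8.28). Other regions shared part of the pattern at the highest and lowest arrays. The mean over 6 markers of the reticular thalamus and zona incerta was also highest in MPTP mouse 1 (9.87) and lowest in acupoint mouse 1 (9.32), with 3 of 6 markers at each extreme. Of 4 cortical markers, 3 were highest in MPTP mouse 1 and 2 lowest in acupoint mouse 1. Their mean was lowest in MPTP mouse 2. Among 10 hypothalamic markers, 6 were lowest in acupoint mouse 1, as was their mean (6.43), but 0 were highest in MPTP mouse 1. Among 8 habenular markers, 3 were highest in MPTP mouse 1 and 0 lowest in acupoint mouse 1. The share of all probe sets with these extremes was not counted. The part of striatal or other neighbouring tissue in the levels of Penk, Pdyn and Oprk1 was not tested.

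**Figure D2:**
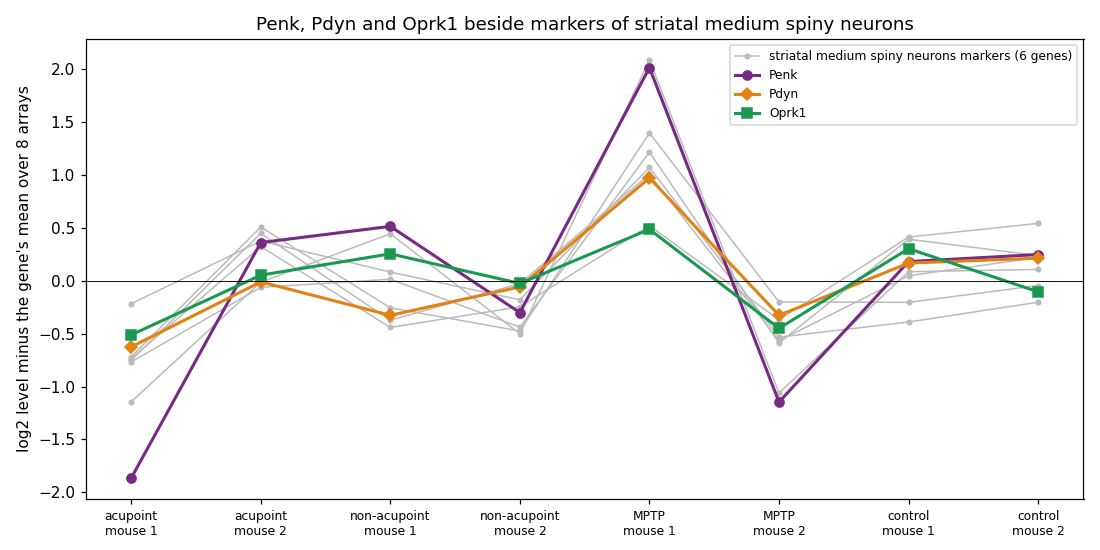
Log2 level of Penk, Pdyn and Oprk1 (coloured) and of 6 striatal medium spiny neuron markers (grey), each minus its own mean over the 8 arrays, by array. MPTP mouse 1 is the highest array and acupoint mouse 1 the lowest for all 3 opioid genes and for 5 of 6 markers in each case.

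Pomc was lower in every MPTP-injected mouse than in either control. Its level was 5.78 and 5.93 in acupoint mice, 5.79 and 5.78 in non-acupoint mice, 5.72 and 6.02 in MPTP mice and 6.12 and 6.44 in controls. The 6 injected mice ran from 5.72 to 6.02, needled or not, and did not overlap the controls. MPTP mouse 2 (6.02) lay nearer to control mouse 1 (6.12) than to MPTP mouse 1 (5.72). Group means were 5.86 ± 0.11 for acupoint, 5.79 ± 0.0064 for non-acupoint, 5.87 ± 0.21 for MPTP and 6.28 ± 0.23 for control mice (SD, n = 2 each). All these levels are near the brightness filter of 5.63.

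Oprd1, the δ receptor to which enkephalins bind, showed the same separation. Its level was 6.01 and 6.11 in acupoint mice, 6.01 and 6.16 in non-acupoint mice, 6.19 and 6.18 in MPTP mice and 6.35 and 6.51 in controls. The group means were 6.06 ± 0.076 for acupoint, 6.09 ± 0.11 for non-acupoint, 6.19 ± 0.0082 for MPTP and 6.43 ± 0.11 for control mice (SD, n = 2 each), and those of the needled groups differed by less than their spread. Both needled groups also lay below both MPTP mice. The differences were -0.13 ± 0.13 for acupoint and -0.10 ± 0.13 for non-acupoint mice (SE, log2 scale), no larger than their errors. A lack of overlap with MPTP mice, in either direction, was seen in 27.1% and 12.4% of all probe sets.

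Against control, neither gene passed the adjusted threshold. In acupoint against control mice Pomc changed by -0.43 ± 0.17 (SE, 95% interval -0.84 to -0.011) and Oprd1 by -0.37 ± 0.13 (-0.69 to -0.047), with limma adjusted p of 0.867 and 0.765. In non-acupoint against control mice the values were -0.50 ± 0.17 (-0.91 to -0.082) and -0.34 ± 0.13 (-0.67 to -0.021), with limma adjusted p of 0.705 for each. In MPTP against control mice they were -0.41 ± 0.17 (-0.82 to 0.0045) and -0.24 ± 0.13 (-0.57 to 0.081), with limma adjusted p of 0.714 for each. Pomc and Oprd1 were the 2 of 8 genes picked at an unadjusted p under 0.05 in acupoint against control and again in non-acupoint against control, where 5.62% and 4.88% of all probe sets were. After adjustment 0 of 8 genes and 0% of probe sets passed in each. Weights estimated per array were equal for both mice of a group, so they do not set single arrays apart. They were 2.99 for each acupoint mouse, 0.344 for each non-acupoint mouse, 0.246 for each MPTP mouse and 3.95 for each control. The acupoint and control groups thus had the highest weights. With these weights, both genes passed in acupoint against control mice (limma adjusted p = 0.0489 for Pomc and 0.0259 for Oprd1). Under those weights 11% of all probe sets passed in that comparison.

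These 3 comparisons share the control mice, so they are not separate evidence. A single comparison of all 6 injected mice with the 2 controls, added after these values were seen, gave -0.44 ± 0.14 for Pomc (SE, 95% interval -0.78 to -0.11) and -0.32 ± 0.11 for Oprd1 (-0.58 to -0.055). That is a level 0.735-fold and 0.802-fold of the control level. Limma adjusted p was 0.557 and 0.611, and 0 of 8 genes passed, as did 0% of probe sets. At an unadjusted p under 0.05 the count was 2 of 8, against 7.07% of probe sets. The 2 genes were also the only ones of the 8 in which all injected mice lay below both controls, which 9.66% of probe sets did. Without the 2 arrays that stood apart the values were -0.40 and -0.30. With control mouse 1 alone as the control, Pomc was at -0.28 and Oprd1 at -0.24, and with control mouse 2 alone they were at -0.60 and -0.40, so the size of each difference depended on which control was used.

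Most hypothalamic markers were lower in injected mice, as Pomc was. Of 10 measured markers, 7 were lower in all 6 injected mice than in both controls. Among them were the histamine-synthesizing enzyme gene Hdc and the hormone genes Oxt and Avp. The others, Hcrt, Pmch and Trh, were not. Hcrt (9.46 and 9.95) and Pmch (10.29 and 10.62) exceeded both controls in MPTP mouse 2 and non-acupoint mouse 2. Trh did so in both non-acupoint mice (8.36 and 7.82). The mean over the 10 markers was 6.43 and 7.22 in acupoint mice, 7.15 and 7.77 in non-acupoint mice, 6.65 and 7.61 in MPTP mice and 8.10 in each control. Their median log2 change was -1.40 in acupoint, -0.66 in non-acupoint and -1.12 in MPTP mice, each against control. Of 6 midbrain dopaminergic markers, 5 were lower in all injected mice, and of 9 thalamic markers 6 were higher in all of them. Of 5 pituitary markers, from the gland where Pomc is also made, Prl, Tshb and Cga lay under the brightness filter. Prl and Cga, both that dim, were lower in all injected mice, and the 2 markers above the filter, Gh and Lhb, were not. The part of hypothalamic tissue in the levels of Pomc and Oprd1 was not tested.

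**Figure D3:**
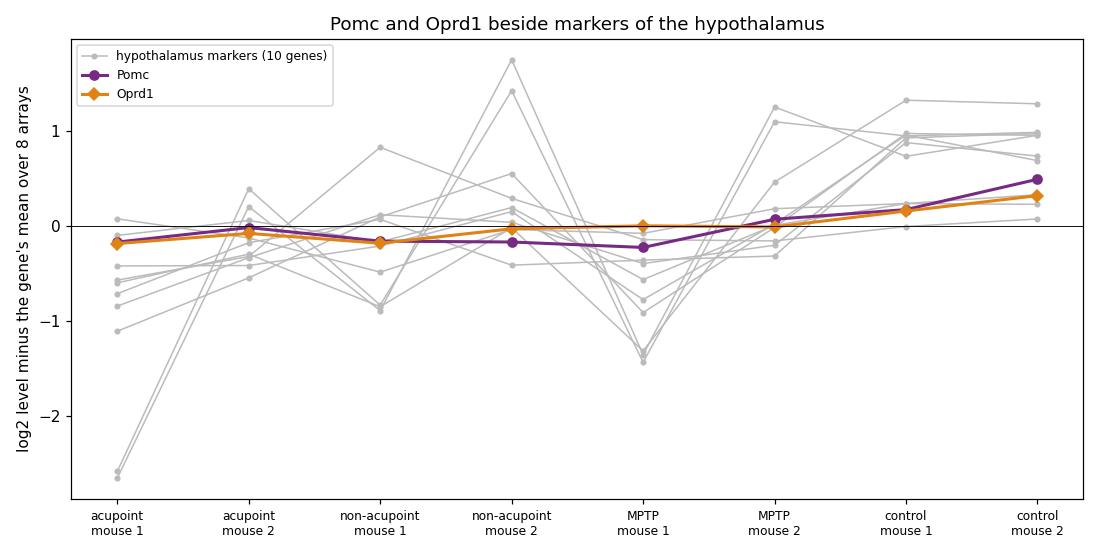
Log2 level of Pomc and Oprd1 (coloured) and of 10 hypothalamic markers (grey), each minus its own mean over the 8 arrays, by array. Pomc and Oprd1 are highest in the 2 controls, as are 7 of the 10 markers, and the 6 injected mice are lower.

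The promoters of these 2 genes are printed because their RNA shared this pattern. RefSeq (GRCm38.p6) windows were given for 5 of the 8 genes (Pdyn, Pomc, Oprm1, Oprd1, Oprl1). The 250 bases before the annotated start are shown 5′ to 3′ on the gene's strand, for Pomc at chr12:3954695-3954944 (+ strand) and for Oprd1 at chr4:132144487-132144736 (- strand). Capitals mark a TATA box (TATAAA) or a GC box (GGGCGG), searched on both strands, so that CCGCCC is a GC box on the other strand.
Pomc: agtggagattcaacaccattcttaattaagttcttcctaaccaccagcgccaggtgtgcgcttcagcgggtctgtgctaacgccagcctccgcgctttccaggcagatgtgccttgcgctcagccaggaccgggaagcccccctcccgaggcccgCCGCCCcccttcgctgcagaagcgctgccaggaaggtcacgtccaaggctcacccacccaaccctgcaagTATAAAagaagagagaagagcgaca
Oprd1: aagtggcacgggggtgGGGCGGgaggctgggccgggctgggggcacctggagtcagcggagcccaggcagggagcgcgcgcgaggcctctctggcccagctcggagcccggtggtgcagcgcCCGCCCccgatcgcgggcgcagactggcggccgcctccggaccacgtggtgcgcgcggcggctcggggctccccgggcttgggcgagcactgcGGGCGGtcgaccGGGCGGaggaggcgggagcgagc
The Pomc window held a TATA box 25 bases before the start and 1 GC box. The Oprd1 window held no TATA box and 4 GC boxes, with a GC content of 80% against 60% for Pomc and a median of 52.4% over all 32851 windows. Of these, 12.4% held a TATA box and 32.7% a GC box. The cAMP response element (TGACGTCA) was found in 0 of the 10 windows of these genes and in 1.55% of all. The windows thus share a GC box and differ in the TATA box, which describes their letters only.

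Pnoc varied little. It stood at 7.55 and 7.31 in acupoint mice, 7.60 and 7.69 in non-acupoint mice, 7.47 and 7.76 in MPTP mice and 7.54 and 7.74 in controls. Acupoint mouse 2 was lowest, and the means of non-acupoint, MPTP and control mice (7.64, 7.61 and 7.64) differed by less than the spread within each group. Pnoc was -0.18 ± 0.17 (SE) in acupoint against MPTP mice and -0.21 ± 0.17 in acupoint against non-acupoint mice (limma adjusted p = 0.889 and 0.893). In the second of these the groups did not overlap, as in 31.8% of all probe sets. The intervals were -0.59 to 0.22 and -0.62 to 0.19, and the second leaves room for a level from 0.653-fold to 1.14-fold.

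Oprl1, the receptor of nociceptin, was lowest in the acupoint group. It stood at 8.79 and 8.73 in acupoint mice, 9.00 and 8.94 in non-acupoint mice, 8.85 and 8.90 in MPTP mice and 9.10 and 8.96 in controls. Its groups overlapped only between non-acupoint and control mice, and its spread within groups was small, with a residual SD of 0.0595. Of all probe sets, 27.1%, 31.8% and 59.6% had no overlap of acupoint with MPTP, non-acupoint and control mice. The acupoint group differed by -0.22 ± 0.13 (SE, 95% interval -0.52 to 0.085) from the non-acupoint group, by -0.12 ± 0.13 (-0.42 to 0.18) from the MPTP group and by -0.27 ± 0.13 (-0.57 to 0.026) from controls. Limma adjusted p was 0.893, 0.889 and 0.953. The non-acupoint group was above the MPTP group by 0.10 ± 0.13 (adjusted p = 1, limma). The moderated errors are larger than the spread seen because limma draws each gene's variance towards that of all probe sets.

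Oprm1, the receptor of morphine and β-endorphin, was highest in the acupoint group, by a small margin. It stood at 6.76 and 6.80 in acupoint mice, 6.66 and 6.60 in non-acupoint mice, 6.68 and 6.57 in MPTP mice and 6.75 and 6.62 in controls. Both acupoint mice were above the other 6, whose groups overlapped with each other. Acupoint mice did not overlap MPTP, non-acupoint or control mice in 27.1%, 31.8% and 59.6% of all probe sets. The share apart from all these groups at once was not counted. All 8 arrays lay within a 1.17-fold span, the narrowest of the 8 genes. The difference was 0.15 ± 0.13 (SE) from the MPTP group (95% interval -0.15 to 0.45, limma adjusted p = 0.889) and 0.15 ± 0.13 from the non-acupoint group (-0.16 to 0.45, limma adjusted p = 0.893). The interval reaches a 1.37-fold higher level at most. The mean over 8 habenular markers was 7.04 and 7.58 in acupoint mice, 6.37 and 6.25 in non-acupoint mice, 7.26 and 6.39 in MPTP mice and 6.58 and 6.56 in controls. It was highest in acupoint mouse 2, with MPTP mouse 1 between the acupoint mice, and Oprm1 was highest in both acupoint mice. The mean over 9 thalamic neuron markers was highest in those same mice. It was 10.40 and 10.43 in acupoint mice, 10.27 and 10.20 in non-acupoint mice, 10.11 in each MPTP mouse and 9.57 and 9.64 in controls. Control mouse 1, with the lowest thalamic mean (9.57), had the next highest Oprm1 (6.75) after the acupoint mice. The part of habenular and thalamic tissue in the level of Oprm1 was not tested.

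**Figure D4:**
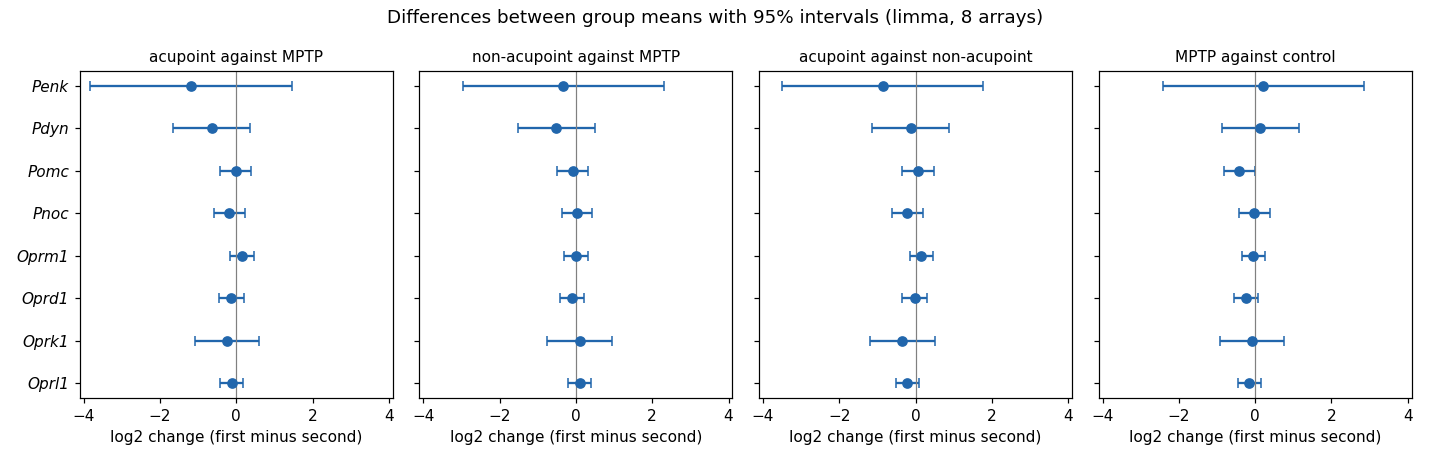
Differences between group means on the log2 scale (first group minus second) for the 8 opioid genes in 4 comparisons, with 95% intervals from limma over 8 arrays. Every interval covers 0, and those of Penk are the widest, from -3.82 to 1.45 in acupoint against MPTP.

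Counted over the 8 genes, 7 were lower and 1 higher in acupoint against MPTP mice, 4 lower and 4 higher in non-acupoint against MPTP mice, 6 lower and 2 higher in acupoint against non-acupoint mice, and 6 lower and 2 higher in MPTP against control mice. The median log2 change of the 8 was -0.16, -0.042, -0.17 and -0.0675, against medians over all tested probe sets of 0.0065, 0.0082, 0.013 and -0.016. Groups did not overlap in 3 of 8, 2 of 8, 3 of 8 and 3 of 8 genes, where 27.1%, 12.4%, 31.8% and 38.5% of probe sets did not. With 8 genes, these counts lie within about 1 gene of the background share. Against control, groups did not overlap in 5 of 8 genes for acupoint (59.6% of probe sets) and in 3 of 8 for non-acupoint mice (47.7%).

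The other genes of the opioid pathway were followed in 4 lists. Genes of precursor processing (10 of 11 measured, Pcsk2 not matched) showed 0 past the adjusted threshold in either direction in any of the 4 comparisons. At an unadjusted p under 0.05 there were 0, 0, 0 and 2 of 10 (1 higher, 1 lower), against 1.37%, 1.56%, 1.89% and 5.29% of all probe sets. The median change was -0.013 in acupoint against MPTP, 0.041 in non-acupoint against MPTP, 0.027 in acupoint against non-acupoint and -0.040 in MPTP against control mice, where the median of all tested genes was 0.0026, 0.0042, 0.0096 and -0.012. The genes of smallest p were Ctsl (-0.21) and Cpe (0.37) in the first comparison and Ctsl (-0.25) and Pcsk1 (0.44) in the second. They were Pcsk1 (-0.52) and Cpe (0.53) in the third and Pam (-0.47) and Furin (0.41) in the last. Pcsk1 encodes a prohormone convertase, Cpe carboxypeptidase E, Ctsl cathepsin L and Pam the enzyme that amidates peptide ends.

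Peptide-degrading enzymes (8 of 9 tested, Anpep too dim) had 0 past the adjusted threshold too, and 0, 2, 1 and 1 of 8 at an unadjusted p under 0.05, against 1.37%, 1.56%, 1.89% and 5.29% of all probe sets. Ace, angiotensin-converting enzyme, which can also cleave enkephalins, stood out in size. Its mean log2 level was 7.86 in acupoint, 6.76 in non-acupoint, 8.30 in MPTP and 7.14 in control mice. It changed by -1.54 ± 0.22 (SE) in non-acupoint against MPTP (limma adjusted p = 0.193), -0.43 ± 0.22 in acupoint against MPTP (0.889), 1.10 ± 0.22 in acupoint against non-acupoint (0.893) and 1.16 ± 0.22 in MPTP against control mice (0.452). All 7 choroid plexus markers were lower in non-acupoint than in MPTP mice, 3 of them past the adjusted threshold. The mean over these markers had the same order of groups as Ace. It was 8.80 and 9.34 in acupoint, 5.62 and 5.84 in non-acupoint, 9.35 and 9.43 in MPTP and 7.31 and 7.40 in control mice. Of the 7 markers, 1 was higher in acupoint than in MPTP mice. The part of choroid plexus in the level of Ace was not tested. The other named genes of the list were Dpp3 (0.34) in acupoint against MPTP, Ece2 (0.33) in non-acupoint against MPTP, Thop1 (0.29) in acupoint against non-acupoint and Ece2 (-0.30) in MPTP against control. Median changes of the list were -0.077, 0.014, -0.093 and 0.20 in the same order.

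Among 23 tested genes of receptor signalling (Adrbk1 not matched), 0 passed the adjusted threshold and 3, 0, 1 and 2 of 23 an unadjusted p under 0.05, all higher, against 1.37%, 1.56%, 1.89% and 5.29% of all probe sets. Median changes were 0.14, -0.010, 0.20 and 0.12. Thalamic neuron markers were higher too, 8 of 9 in each of the first 3 comparisons and 7 of 9 in the last, with medians of 0.27, 0.090, 0.20 and 0.59, and their part in these changes was not tested. Kcnj9, a subunit of the G protein-gated potassium channel that opioid receptors open, averaged 9.20 in acupoint and 8.49 in MPTP mice (log2 change 0.71 ± 0.23, SE, limma adjusted p = 0.889). The adenylyl cyclase gene Adcy8 averaged 8.92 in acupoint and 8.48 in MPTP mice (0.44 ± 0.13). Adcy8 (0.30) and Rgs14 (-0.43) had the smallest p in non-acupoint against MPTP. Adcy1 (0.47) and Gnai2 (-0.30) did in acupoint against non-acupoint. Adcy1 (0.81) and Rgs7 (0.49) did in MPTP against control. Rgs9 is both in this list and in the striatal one.

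Other peptides and receptors tied to opioid action (10 of 12 tested) also had 0 past the adjusted threshold and 1, 0, 1 and 1 of 10 at an unadjusted p under 0.05, each time Mc4r, against 1.37%, 1.56%, 1.89% and 5.29% of all probe sets. Median changes were -0.22, -0.028, -0.030 and -0.18. Mc4r, a receptor of melanocortins cut from the Pomc product, averaged 5.54 in acupoint, 5.93 in non-acupoint, 6.01 in MPTP and 6.41 in control mice. It was -0.46 in acupoint against MPTP, -0.39 in acupoint against non-acupoint and -0.40 in MPTP against control, with limma adjusted p of 0.889, 0.893 and 0.714. Both acupoint levels (5.51 and 5.58) lie under the filter value of 5.63. Cck, the cholecystokinin gene, was at 0.46 in acupoint against MPTP and at 0.40 in acupoint against non-acupoint. Cckbr (-0.16) and Npff (0.12) had the smallest p in non-acupoint against MPTP, and Npffr1 (-0.34) was second in MPTP against control.

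**Figure D5:**
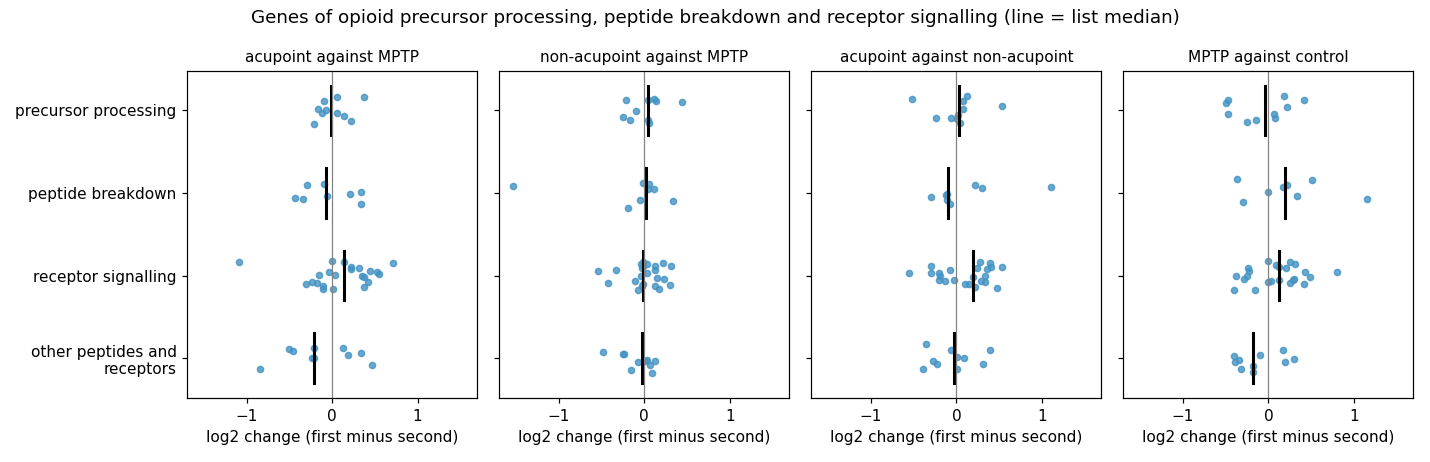
Log2 change (first group minus second) of each tested gene in 4 lists of the opioid pathway, in 4 comparisons, with the list median as a black line. Most genes lie within 0.5 of 0, and the farthest point is Ace at -1.54 in non-acupoint against MPTP.

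The genes whose levels ran most like each opioid gene over the 8 arrays were found by Pearson's r among 13523 other genes. The highest of so many values is high by selection, so r is given as a measure of likeness with no test, and again over the 6 arrays without MPTP mouse 1 and non-acupoint mouse 1. For Penk they were Akap5 (0.99 over 8 and 0.98 over 6 arrays), an anchoring protein of protein kinase A, Pofut2 (0.99 and 0.99) and Crip2 (0.97 and 0.94). For Pdyn they were Cfap36 (0.98 and 0.93), Baiap2 (0.97 and 0.91) and the potassium channel gene Kcnv1 (0.97 and 0.93). For Oprk1 they were Pacc1 (0.99 and 0.98), 9530077C05Rik (0.975 and 0.976) and Utp14a (0.97 and 0.98). Those of Pomc were Smad6 (0.968 and 0.965), Palm3 (0.95 and 0.975) and Stap2 (0.95 and 0.97), and those of Oprd1 were Pisd (0.97 and 0.96), Igsf11 (0.97 and 0.97) and Mpped1 (0.96 and 0.96). For the other 3 genes r is given over 8 arrays. The genes were Zar1, Atf1 and Ascl5 for Pnoc (0.97, 0.93 and 0.93). They were Ift122, Pprc1 and Arv1 for Oprm1 (0.91, 0.90 and 0.89). Those of Oprl1 were Mthfd2l, Glrx5 and Magel2 (0.96, 0.94 and 0.94). No gene was named for more than 1 opioid gene.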

How the data were processed

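The deposited values are log2 levels, 1 column per mouse, which the authors made with RMA in Affymetrix Expression Console, per the submitters' processing notes. Their versions and any filter are not given in the sources used. Per the labels' protocols, 300 ng of total RNA was labelled per array.

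Of 35557 probe sets, 21789 had 1 gene symbol, 1621 several and 12147 none here. Symbols were updated through the gene identifier. The 40% dimmest by mean over 8 arrays (under 5.63) and unnamed probe sets were left out, leaving 15791. R 4.3.3 and limma 3.58.1 fitted 4 group means to all 8 arrays (4 residual and 2.53 prior degrees of freedom), two-sided, with Benjamini-Hochberg adjustment over all tested probe sets and a threshold of 0.05. Permuting 2 against 2 arrays exactly gives no two-sided p under 0.333, so no permutation test was used. The fit was run on simulated data with independent noise of equal spread in all groups. No simulated array stood apart, so that run does not cover such arrays. Lists use the brightest probe set per gene. The members, gene lists, alternatives and naming rule (all members, the 2 genes of smallest p per pathway list and comparison, the 3 genes most alike) were chosen with earlier results of these data known. The comparison of all injected mice with control was added after values were seen. Markers named beyond that rule, and the levels given for Mc4r and Ace in all groups, were chosen after values were seen. Those markers were Rgs9, Drd2, Hdc, Oxt, Avp, Hcrt, Pmch, Trh, Gh, Lhb, Prl, Tshb, Cga, Prkcd, Tcf7l2 and Slc17a6. Alternatives were quantile normalization, other filters, an intensity trend, array weights, a fit restricted to the compared groups, a replicate block, each mouse left out, and leaving out or modelling the 2 arrays that stood apart.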

Additional observations from a re-analysis of the deposited data

How the results depend on the processing

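The count of opioid genes past the adjusted threshold was 0 under 16 of 17 alternatives in every comparison in which each could be run, and the exception was array weights, under which it was 2 in acupoint against control mice. Of 34 differences of single genes, 15 kept their sign under all alternatives, including Oprl1 in all 4 main comparisons and Pomc and Oprd1 in all injected against control mice, and 19 turned. With the dimmest 60% left out, Pomc, Oprm1, Oprd1 and Oprk1 had no value. With 2 mice per group, 1 mouse often sets the sign, and the cause was not tested. Quantile normalization applied again turned Pomc in acupoint against MPTP to 0.047 and Oprd1 in acupoint against non-acupoint to 0.019.

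Without the 2 arrays that stood apart, MPTP against control gave -1.36 for Penk, -0.52 for Pdyn and 0.12 for Pnoc. Acupoint against MPTP gave 0.39 for Penk, 0.0086 for Pdyn and 0.22 for Oprk1. Non-acupoint against MPTP gave 0.84 for Penk, 0.27 for Pdyn and -0.071 for Pnoc. With a term for these arrays, MPTP against control gave -0.77 for Penk, -0.13 for Pdyn and 0.070 for Pnoc, acupoint against MPTP gave 0.056 for Oprk1, and acupoint against non-acupoint gave 0.14 for Penk, 0.13 for Pdyn and -8e-04 for Pomc.

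Leaving out 1 mouse at a time turned these log2 differences. In acupoint against MPTP mice the values ran from -2.76 to 0.39 for Penk, -1.29 to 0.0086 for Pdyn, -0.16 to 0.13 for Pomc and -0.71 to 0.22 for Oprk1. In non-acupoint against MPTP mice the values ran from -1.91 to 1.25 for Penk, -1.16 to 0.13 for Pdyn, -0.23 to 0.062 for Pomc, -0.12 to 0.17 for Pnoc, -0.051 to 0.056 for Oprm1 and -0.37 to 0.56 for Oprk1. In acupoint against non-acupoint mice the values ran from -1.97 to 0.25 for Penk, -0.43 to 0.18 for Pdyn, -0.0054 to 0.15 for Pomc and -0.10 to 0.05 for Oprd1. In MPTP against control mice the values ran from -1.36 to 1.80 for Penk, -0.52 to 0.78 for Pdyn, -0.17 to 0.12 for Pnoc, -0.12 to 0.011 for Oprm1 and -0.55 to 0.39 for Oprk1.

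With the mouse number as a replicate block the counts were 0 in every comparison, and the differences were the same, as the block is balanced (Penk -1.19 in acupoint against MPTP). The correlation of same-numbered deviations ran from -0.28 for MPTP and acupoint to 0.82 for MPTP and non-acupoint mice. The value of 0.82 is between the groups whose mouse 1 stood apart. These values cannot tell whether the numbers pair the samples.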
